A study of Arabidopsis thaliana with 4 samples.

Results

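Glucosinolates are the sulfur-rich defence compounds of Arabidopsis and its relatives. The set described here holds 10 genes of their pathway, taken by gene ID out of 27655 genes in the deposited expression table. No cut on a measured value was used, but the genes were chosen with earlier results of these data known. The genes are MYB28 (AT5G61420), MYB29 (AT5G07690), MYB34 (AT5G60890), MYB51 (AT1G18570), MAM1 (AT5G23010), CYP79F1 (AT1G16410), CYP83A1 (AT4G13770), CYP79B2 (AT4G39950), CYP83B1 (AT4G31500) and TGG1 (AT5G26000). The study asked what the bifunctional nuclease gene AtBBD1 does in drought. For sequencing, drought was imposed by watering with polyethylene glycol (PEG), an osmoticum that holds water back from the roots. Elsewhere the study also withheld water from plants in soil. Leaf mRNA of 3-week-old plants of the Columbia accession was sequenced in 4 libraries, 1 per condition, from samples whose tissue is labelled as leaves and whose titles speak of seedlings. They were the AtBBD1 overexpression line OX5-4 after 6 h of 20% PEG, the insertion mutant atbbd1 after 6 h of 20% PEG, wild type (WT) after 6 h of 20% PEG, and WT at 0 h without PEG. OX5-4 is a single transgenic line, which the labels give as p35S:AtBBD1 and the study describes with a promoter of cassava vein mosaic virus. The mutant carries a T-DNA insertion, and each RNA sample was pooled over plants. AtBBD1 itself stood at 631 FPKM in OX5-4, 36.6 FPKM in atbbd1, 541 FPKM in WT after PEG and 95.5 FPKM in WT at 0 h, so that the mutant label fitted its library, while the overexpression line exceeded WT after PEG by only 1.17-fold (1.14 to 1.19).

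Glucosinolates are made along parallel branches. In the aliphatic branch, methionine is first lengthened, then turned into an aldoxime by a CYP79F enzyme and oxidised by CYP83A1. In the indolic branch, tryptophan is turned into an aldoxime by CYP79B enzymes and oxidised by CYP83B1. MYB28 and MYB29 activate the aliphatic genes, MYB34 and MYB51 the indolic ones, and these MYBs act together with the bHLH factors MYC2, MYC3 and MYC4. The finished compounds are stored intact in the leaf and are broken down by myrosinases such as TGG1 when tissue is damaged.

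Levels are given in FPKM, which divides the fragments of a gene by its transcript length in kilobases and by the sequencing depth, as the authors deposited them. The number of mapped fragments behind each library was recovered from the steps between low FPKM values and lay between 15321000 (WT at 0 h) and 17684000 (OX5-4). Since no condition was repeated, replicate error could not be measured and no p-value was computed, so a ratio is followed in parentheses by its exact 95% binomial interval on the recovered reads, which covers counting error only and not the spread between plants. Calls were made where FPKM differed by 2-fold or more, the study's own threshold. A gene was considered where it reached 1 FPKM in at least 1 library, which held for 16374 genes and for 10 of the 10 glucosinolate genes. In bulk leaf RNA, fewer cells of a type and less RNA per cell cannot be told apart.

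The step to WT after PEG from WT at 0 h moved the aliphatic enzymes most. MAM1, CYP79F1 and CYP83A1 were all called lower after PEG, by 2.54-fold to 5.34-fold, and none of the 10 genes was called higher. The indolic enzymes lay 1.77-fold to 1.93-fold lower, short of the threshold, and the 4 MYB genes and TGG1 were not called. Over all genes considered, 15.9% were called lower and 16.1% higher in this comparison, beside 3 of 10 lower and 0 of 10 higher in the glucosinolate set. No untreated library was taken at 6 h, so PEG and the hours that passed cannot be told apart. The morning clock genes CCA1, LHY and PRR9 summed to 12.4 FPKM in WT after PEG and 319 FPKM in WT at 0 h, and the evening clock genes TOC1, GI, ELF4 and LUX summed to 183 FPKM in WT after PEG and 8.91 FPKM in WT at 0 h; their part in the glucosinolate values was not tested.

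Because MAM1, CYP79F1 and CYP83A1 were the genes called lower together, the 250 bases before each annotated transcript start are shown here, 5′ to 3′ on the gene's own strand, from the RefSeq annotation of TAIR10.1. They lie at chr5:7702791-7703040 (+ strand) for MAM1, chr1:5608432-5608681 (+ strand) for CYP79F1 and chr4:7992430-7992679 (− strand) for CYP83A1. Capitals mark matches to the motifs searched on both strands.
MAM1: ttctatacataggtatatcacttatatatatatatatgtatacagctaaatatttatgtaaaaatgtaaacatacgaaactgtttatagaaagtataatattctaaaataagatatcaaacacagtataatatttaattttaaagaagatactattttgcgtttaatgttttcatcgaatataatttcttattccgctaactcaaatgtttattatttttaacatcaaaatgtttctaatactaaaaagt
CYP79F1: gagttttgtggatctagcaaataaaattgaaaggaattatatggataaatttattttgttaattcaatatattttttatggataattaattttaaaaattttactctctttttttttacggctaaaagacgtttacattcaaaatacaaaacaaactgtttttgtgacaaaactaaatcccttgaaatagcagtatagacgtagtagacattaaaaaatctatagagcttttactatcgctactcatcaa
CYP83A1: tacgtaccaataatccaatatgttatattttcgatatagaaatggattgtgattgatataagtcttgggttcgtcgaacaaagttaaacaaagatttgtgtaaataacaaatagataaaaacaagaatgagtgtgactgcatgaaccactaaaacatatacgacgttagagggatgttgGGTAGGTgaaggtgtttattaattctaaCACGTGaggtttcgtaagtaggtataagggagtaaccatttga

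The motifs searched were the G-box CACGTG, a core bound by bHLH factors, the AC elements ACCAACC and ACCTACC, and the MYB core CNGTTG. Of these 3 genes only CYP83A1 held a match, CACGTG at bases 43 to 38 before the start and ACCTACC, read on the other strand as GGTAGGT, at bases 71 to 65. Over the 27443 windows of the same length before annotated genes, 6.49% held CACGTG, 1.16% ACCTACC, 2.69% ACCAACC and 20.3% CNGTTG. Among the 10 genes, 1 held CACGTG, 1 held ACCTACC, 0 held ACCAACC and 1 (TGG1) held CNGTTG, as CAACTG on the other strand. A match describes the letters in the window, not a bound site.

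The 4 MYB genes differed in level and in the library where each was highest. MYB28, the main activator of the aliphatic branch, was at 34.7 FPKM in OX5-4, 34.8 FPKM in atbbd1, 30.2 FPKM in WT after PEG and 31.6 FPKM in WT at 0 h. Its level was the highest of the 4 MYBs in every library and varied least. MYB29, which acts on the same genes, was at 11.5 FPKM in OX5-4, 6.80 FPKM in atbbd1, 7.27 FPKM in WT after PEG and 12.7 FPKM in WT at 0 h. OX5-4 and WT at 0 h were thus high and the other 2 libraries low. MYB34, an activator of the indolic branch, was at 15.4 FPKM in OX5-4, 11.0 FPKM in atbbd1, 14.9 FPKM in WT after PEG and 8.96 FPKM in WT at 0 h, and it was the only one of the 4 with its lowest level at 0 h. MYB51, also of the indolic branch, was the lowest of the 4 MYBs, at 4.12 FPKM in OX5-4, 1.62 FPKM in atbbd1, 3.24 FPKM in WT after PEG and 3.18 FPKM in WT at 0 h. These MYB51 values rest on 130, 49, 91 and 87 reads in the same order of libraries, and atbbd1 was the library set apart.

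The 3 aliphatic enzymes shared a pattern, with WT at 0 h far above the 3 libraries taken after PEG. MAM1, which carries out the condensing step of methionine chain elongation, was at 65.2 FPKM in OX5-4, 70.9 FPKM in atbbd1, 53.7 FPKM in WT after PEG and 136 FPKM in WT at 0 h. CYP79F1 was at 22.2 FPKM in OX5-4, 27.1 FPKM in atbbd1, 18.5 FPKM in WT after PEG and 98.9 FPKM in WT at 0 h. CYP83A1, the next enzyme in the branch, was at 75.6 FPKM in OX5-4, 80.5 FPKM in atbbd1, 77.4 FPKM in WT after PEG and 197 FPKM in WT at 0 h. Among the libraries after PEG, atbbd1 held the highest value of each of the 3 enzymes, for CYP83A1 within counting error of WT. The annotated exons of CYP79F1 sum to 3272 bases over its transcripts, against 1909 for CYP83A1 and 2051 for MAM1, so its level per length may be set low by a long transcript model when it is read against the other genes.

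The indolic enzymes were also highest at 0 h, but among the libraries after PEG it was atbbd1 that held the lowest value of each. CYP79B2, whose aldoxime product also feeds auxin and camalexin, was at 2.83 FPKM in OX5-4, 2.59 FPKM in atbbd1, 3.09 FPKM in WT after PEG and 5.46 FPKM in WT at 0 h. CYP83B1, which commits that aldoxime to glucosinolates, was at 30.8 FPKM in OX5-4, 24.1 FPKM in atbbd1, 42.8 FPKM in WT after PEG and 82.6 FPKM in WT at 0 h. CYP79B2 rests on 94 to 179 reads per library, and its 3 values after PEG lay within counting error of each other. TGG1, the abundant leaf myrosinase, had the highest level of the 10 genes, at 335 FPKM in OX5-4, 329 FPKM in atbbd1, 398 FPKM in WT after PEG and 329.9 FPKM in WT at 0 h. Its highest level was in WT after PEG, unlike that of any biosynthetic enzyme of the set.

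**Figure D1:**
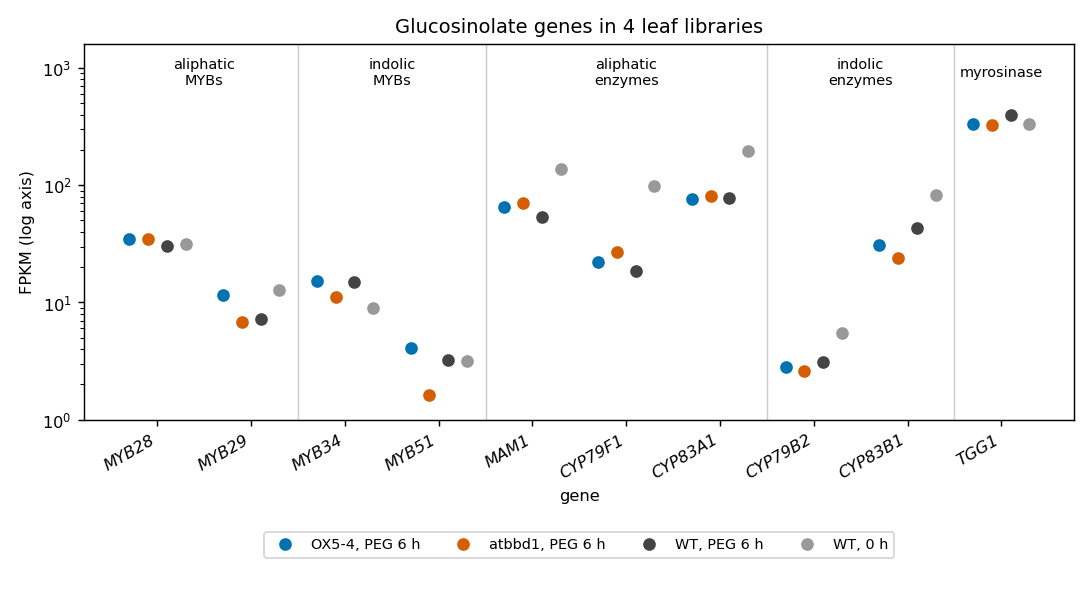
Level of each of the 10 glucosinolate genes in FPKM (log axis), 1 point per library, with OX5-4, atbbd1 and WT after 6 h of PEG and WT at 0 h placed left to right within each gene. The 3 aliphatic enzymes and CYP83B1 stood apart at 0 h, and MYB51 in atbbd1 was the lowest point at 1.62 FPKM.

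In WT after PEG relative to WT at 0 h, CYP79F1 was 5.34-fold lower (4.98 to 5.73), CYP83A1 2.55-fold lower (2.43 to 2.67) and MAM1 2.54-fold lower (2.40 to 2.69). The indolic enzymes were closer to the threshold, CYP83B1 at 1.93-fold lower (1.80 to 2.06) and CYP79B2 at 1.77-fold lower (1.38 to 2.27). CYP83B1 passed it where each library was rescaled to a common FPKM sum, which gave 4 genes called lower. No MYB gene of the set was called. MYB28 had a ratio of 0.955 (0.873 to 1.05), an interval that includes 1, while MYB29 was 1.74-fold lower (1.46 to 2.08) and MYB34 1.66-fold higher (1.41 to 1.95). MYB51 had a ratio of 1.02 (0.752 to 1.38), and TGG1 was 1.20-fold higher (1.17 to 1.24). The median log2 ratio was -1.35 over the 5 aliphatic genes (3 called lower) and -0.39 over the 4 indolic genes (0 called), against 0.04 over all genes.

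The rest of the pathway was read from lists by step, with 79 further genes in the table and 63 of them considered. Of these 63 genes, 35 were called lower and 8 higher in WT after PEG relative to WT at 0 h, with a median log2 ratio of -1.26. Over all genes, 15.9% were called lower and 16.1% higher. All 6 other genes of the aliphatic core were called lower, the smallest change being that of the sulfotransferase SOT18 (29.3 FPKM in WT after PEG and 88.3 FPKM in WT at 0 h) and the largest that of CYP79F2, a near copy of CYP79F1 (0.69 FPKM in WT after PEG and 5.69 FPKM in WT at 0 h). Of the 8 other genes of chain elongation, 7 were called lower, from IPMI-LSU1 at 2.39-fold (2.28 to 2.51) to MAM3, a neighbour of MAM1, at 6.59-fold (4.91 to 8.96). BCAT3 was the gene not called, at 1.71-fold lower (1.60 to 1.84).

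Steps that serve both branches moved the same way. The 4 genes of the shared core were all called lower, from the peptidase GGP1 at 2.66-fold (2.49 to 2.84) to the adenylyl-sulfate kinase APK2 at 4.08-fold (3.70 to 4.51). All 5 genes of sulfate assimilation were called lower, from APR3 (19.8 FPKM in WT after PEG and 78.4 FPKM in WT at 0 h) to APR2, an adenylyl-sulfate reductase (11.9 FPKM in WT after PEG and 319 FPKM in WT at 0 h). The glucosinolate transporters GTR1 and GTR2 were 3.28-fold lower (2.89 to 3.71) and 3.41-fold lower (2.96 to 3.93). Among regulators, 4 of 8 were called lower (MYB76, MYC4, SDI1, SDI2) and MYC2 was called higher, at 7.11 FPKM in WT after PEG and 3.51 FPKM in WT at 0 h. MYB76, the third aliphatic MYB, was at 1.41 FPKM in WT after PEG and 3.14 FPKM in WT at 0 h, and MYC4 was at 2.86 FPKM in WT after PEG and 15.3 FPKM in WT at 0 h. SDI1, a repressor induced by sulfur shortage, was at 0.10 FPKM in WT after PEG and 1.45 FPKM in WT at 0 h. MYB122, the third indolic MYB, was listed at 0 in all 4 libraries.

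The indolic core, indole modification and breakdown were mixed. In the indolic core, CYP79B3, UGT74B1 and SOT16 were called lower, by 2.99-fold (2.57 to 3.48), 2.1-fold (1.93 to 2.29) and 2.49-fold (2.22 to 2.81), while the glutathione transferase GSTF10 was 3.96-fold higher (3.68 to 4.27) and its neighbour GSTF9 1.91-fold higher (1.85 to 1.97). In indole modification, CYP81F3 and IGMT2 were called lower and IGMT5, an indole glucosinolate methyltransferase, was called higher, at 31.3 FPKM in WT after PEG and 0.43 FPKM in WT at 0 h. In side-chain modification, FMOGS-OX1 and FMOGS-OX3 were called lower, by 5.74-fold (4.76 to 6.95) and 5.63-fold (4.92 to 6.45), and FMOGS-OX2 and FMOGS-OX4, which code for S-oxygenases of the same family, were called higher. Of 8 breakdown genes, 0 were called lower and 2 higher, the atypical myrosinase gene PEN2 at 2.56-fold (2.39 to 2.76) and the nitrile specifier gene NSP1 at 2.45-fold (1.95 to 3.10). TGG2, the second leaf myrosinase, was 1.38-fold higher (1.32 to 1.43), and ESM1 and NSP5 were the breakdown genes below 0 h. In tryptophan supply, 0 of 6 were called lower and TSB1 was called higher, at 2.13-fold (1.97 to 2.30).

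**Figure D2:**
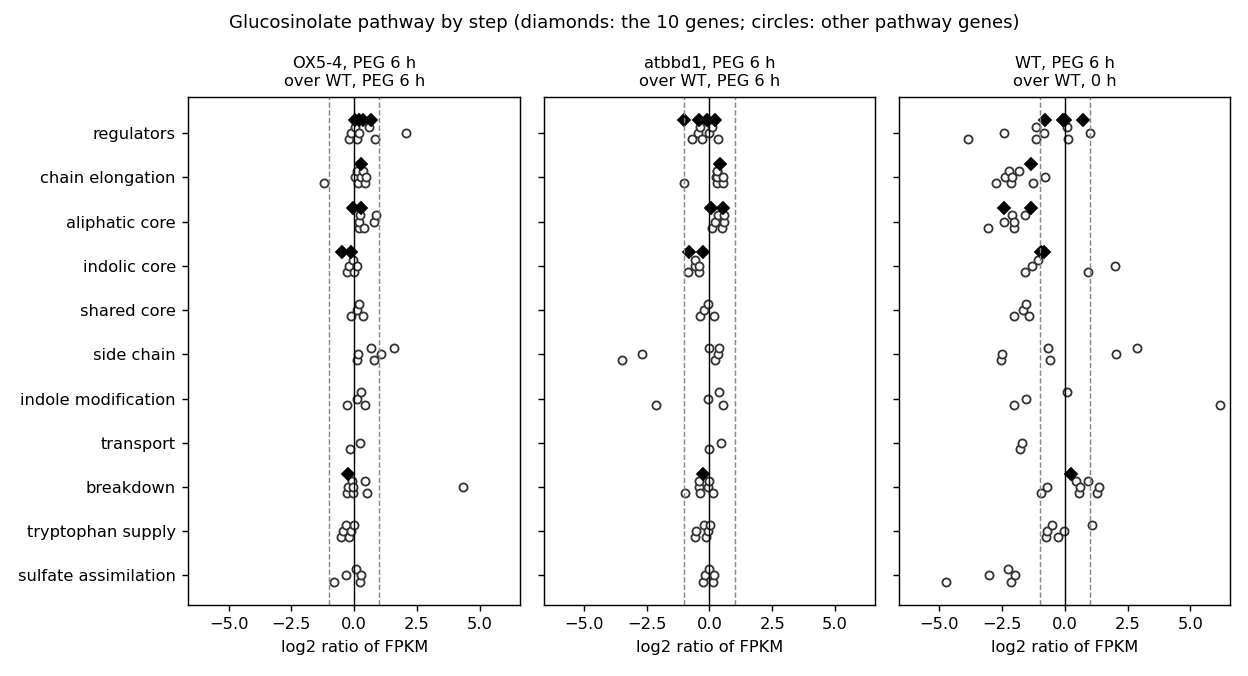
Log2 ratio of FPKM for each pathway step in 3 comparisons (OX5-4 over WT after PEG, atbbd1 over WT after PEG, WT after PEG over WT at 0 h), with diamonds for the 10 genes and circles for the other pathway genes considered; dashed lines mark 2-fold. The aliphatic core, chain elongation, shared core, transport and sulfate assimilation all lay left of 0 in WT after PEG, while breakdown genes lay mostly to the right. Genes listed at 0 in atbbd1 (MYC2 and MBP2, left out of the middle panel) and the camalexin branch are not drawn.

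The comparison of OX5-4 with WT after PEG asked whether the overexpression line differed under the same treatment. No glucosinolate gene of the 10 was called in either direction, against 2.45% of all genes called higher and 1.31% called lower. The largest difference was that of MYB29, 1.59-fold higher in OX5-4 (1.33 to 1.89), and the largest in the other direction was that of CYP83B1, 1.39-fold lower (1.28 to 1.51). Of the aliphatic genes, MAM1 was 1.22-fold higher (1.14 to 1.29), CYP79F1 1.20-fold higher (1.10 to 1.3) and MYB28 1.15-fold higher (1.05 to 1.25). CYP83A1 had a ratio of 0.977 (0.923 to 1.03), and the intervals of MYB51, MYB34 and CYP79B2 included 1 as well. TGG1 was 1.19-fold lower (1.16 to 1.22). The median log2 ratio was 0.26 over the 5 aliphatic genes and -0.04 over the 4 indolic genes, against 0.02 over all genes.

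Of the 63 other pathway genes, 4 were called higher and 2 lower in OX5-4 relative to WT after PEG, against 2.45% and 1.31% of all genes. FMOGS-OX4 was at 71.1 FPKM in OX5-4 and 23.5 FPKM in WT after PEG, and FMOGS-OX2 was at 8.0 FPKM in OX5-4 and 3.78 FPKM in WT after PEG. These are neighbours with similar sequences, so reads can be shared between them and with FMOGS-OX3. The other calls rested on low levels. SDI1 was at 0.42 FPKM in OX5-4 and 0.10 FPKM in WT after PEG, with 9 and 2 reads, and MBP2, a myrosinase-binding protein gene, was at 1.21 FPKM in OX5-4 and 0.06 FPKM in WT after PEG, with 65 and 3 reads. MAM3 was 2.30-fold lower (1.41 to 3.82), and the camalexin gene CYP71B15 was 4.21-fold lower (2.0 to 10.1) on 9 and 34 reads. The 6 other genes of the aliphatic core all lay above WT after PEG in OX5-4, at a median log2 ratio of 0.32, from SOT17 (12.4 FPKM in OX5-4 and 10.9 FPKM in WT after PEG) to GSTF11 (5.45 FPKM in OX5-4 and 2.99 FPKM in WT after PEG). MYB76 stood at 2.54 FPKM in OX5-4 and 1.41 FPKM in WT after PEG, 1.80-fold higher (1.18 to 2.80).

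The comparison of atbbd1 with WT after PEG asked what the loss of AtBBD1 changed under the same treatment. Here the branches lay on opposite sides, apart from MYB29. MYB51, CYP83B1, MYB34 and CYP79B2, the 4 indolic genes, all lay below WT after PEG, and MAM1, CYP79F1, MYB28 and CYP83A1 lay above it. MYB51 was the 1 gene called, at 2.0-fold lower (1.40 to 2.90), which is the threshold itself, and 0 genes were called higher. Over all genes, 5.29% were called lower and 1.07% higher. The MYB51 call was lost with a pseudocount of 1 or 0.1, with a filter of 5 FPKM, and under median-of-ratios scaling. CYP83B1 was 1.77-fold lower in atbbd1 (1.62 to 1.94), MYB34 1.35-fold lower (1.16 to 1.56) and CYP79B2 1.19-fold lower (0.896 to 1.60). Of the aliphatic genes, CYP79F1 was 1.46-fold higher (1.35 to 1.59), MAM1 1.32-fold higher (1.24 to 1.41), MYB28 1.15-fold higher (1.06 to 1.26) and CYP83A1 had a ratio of 1.04 (0.983 to 1.10). MYB29 had a ratio of 0.935 (0.764 to 1.14) and fell on the other side of 1 under median-of-ratios scaling. TGG1 was 1.21-fold lower (1.18 to 1.24). Part of this split was shared with OX5-4, whose comparison used the same WT library. For the enzymes alone, the median log2 ratio over WT after PEG was 0.40 (aliphatic) and -0.54 (indolic) in atbbd1. In OX5-4 it was 0.26 and -0.30. The indolic MYBs were not alike in this way, at a median of -0.71 in atbbd1 and 0.20 in OX5-4.

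The median log2 ratio of atbbd1 over WT after PEG was -0.63 over the 4 indolic genes and 0.21 over the 5 aliphatic genes, against -0.11 over all genes. Median-of-ratios scaling raised every log2 ratio of this comparison by 0.10, and 4 of 4 indolic genes remained below WT after PEG under each scaling tried. Of the other pathway genes, in lists chosen with earlier results of these data known, those of the indolic core, the aliphatic core and chain elongation lay mostly on the sides of their branch, while indole modification (2 above, 2 below) and side-chain modification (3 above, 3 below) were split. All 5 other genes of the indolic core lay below WT after PEG in atbbd1, at a median log2 ratio of -0.58, and 0 were called. They ran from GSTF10, at 112 FPKM in atbbd1 and 201 FPKM in WT after PEG, to GSTF9, at 439 FPKM in atbbd1 and 579 FPKM in WT after PEG. CYP79B3, the paralog of CYP79B2, was 1.50-fold lower (1.23 to 1.84). All 6 other genes of the aliphatic core lay above WT after PEG, at a median of 0.42 with 0 called, and so did 7 of 8 in chain elongation, at a median of 0.30. GSTU20 was the highest of the aliphatic core, at 133 FPKM in atbbd1 and 88.6 FPKM in WT after PEG.

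Markers of phloem, a tissue of the veins, near which much glucosinolate synthesis is known to occur, were compared as well. All 6 phloem genes (SUC2, APL, SEOR1, SWEET11, SWEET12, AHA3) lay above WT after PEG in atbbd1, at a median log2 ratio of 0.74 and a sum of 141 FPKM in atbbd1 and 82.1 FPKM in WT after PEG. Their sum was 94.0 FPKM in OX5-4 and 165 FPKM in WT at 0 h, and none of the 6 was at 0. In OX5-4, 5 of 6 lay above WT after PEG, at a median of 0.22, with SWEET11 and SWEET12 at ratios of 1.01 (0.910 to 1.12) and 0.988 (0.845 to 1.15). In WT after PEG relative to WT at 0 h, 5 of 6 lay lower, at a median of -1.19, while SWEET12 was 7.43-fold higher (5.37 to 10.6). The indolic genes lay on the other side in atbbd1. Guard cell markers were summed as well, since TGG1 is known to be abundant in that cell type. Sums were 8.90 FPKM in OX5-4, 17.7 FPKM in atbbd1, 12.3 FPKM in WT after PEG and 28.9 FPKM in WT at 0 h. TGG1 did not share this order. Much of the spread after PEG lay in GC1, with 0.44 FPKM in OX5-4, 6.93 FPKM in atbbd1 and 3.25 FPKM in WT after PEG. In both lines, the intervals of FAMA, MYB60 and KAT1 against WT after PEG included 1. HT1, KAT2 and SLAC1 stayed below 1 FPKM in every library, and all lay above WT after PEG in atbbd1. Of the 3 root markers, IRT1 and COBL9 were listed at 0 in all 4 libraries, and WOX5 was at 1.5 FPKM in OX5-4, 1.23 FPKM in atbbd1, 1.69 FPKM in WT after PEG and 0.06 FPKM in WT at 0 h, on 28, 22, 28 and 1 reads. The 4 leaf mesophyll markers summed to between 32611 and 45396 FPKM, most of it LHCB1.3 and RBCS1A. In atbbd1 relative to WT after PEG, CA1 was 1.78-fold higher (1.76 to 1.81) and RBCS1A 1.40-fold higher (1.39 to 1.41). LHCB1.3 had a ratio of 1.03 (1.02 to 1.03), and LHCB2.1 went the other way, at 1.11-fold lower (1.10 to 1.13). In WT after PEG relative to WT at 0 h, CA1 was 2.15-fold lower (2.12 to 2.17) and RBCS1A 1.61-fold lower (1.60 to 1.62). LHCB2.1 was 1.32-fold lower (1.31 to 1.34) there, while LHCB1.3 was 2.21-fold higher (2.20 to 2.22). The morning clock genes summed to 15.0 FPKM in OX5-4, 4.65 FPKM in atbbd1 and 12.4 FPKM in WT after PEG. The part of these cell types and of the clock in the glucosinolate values was not tested.

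Of the 63 other pathway genes, 0 were called higher and 6 lower in atbbd1 relative to WT after PEG. Over all genes, 1.07% were called higher and 5.29% lower. FMOGS-OX4 was at 2.12 FPKM in atbbd1 and 23.5 FPKM in WT after PEG, 11.1-fold lower (8.78 to 14.1). FMOGS-OX2 was at 0.59 FPKM in atbbd1 and 3.78 FPKM in WT after PEG, 6.41-fold lower (3.95 to 10.8). The remaining members of that family did not follow, since FMOGS-OX3 was at 9.38 FPKM in atbbd1 and 7.15 FPKM in WT after PEG. MYC2, a bHLH partner of the MYBs, was listed at 0 in atbbd1, against 7.11 FPKM and 367 reads in WT after PEG. It is counted among the 6, but the cause of this 0 was not tested, and a fault in quantification was not excluded. In OX5-4, MYC2 was at 8.04 FPKM and was not called against WT after PEG. The study reports, by quantitative PCR, lower MYC2 in its overexpression lines under drought. MYC3 was 1.31-fold lower in atbbd1 (1.18 to 1.46) and MYC4 1.63-fold lower (1.20 to 2.25). MAM3 was 2.04-fold lower (1.27 to 3.36), IGMT2 was called lower on 3 and 12 reads, and CYP71B15 was listed at 0 in atbbd1, against 1.22 FPKM in WT after PEG. TGG2 was 1.34-fold lower (1.29 to 1.39), and 7 of 8 breakdown genes lay below WT after PEG, with 0 called. Under median-of-ratios scaling 5 of 8 lay below it.

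**Figure D3:**
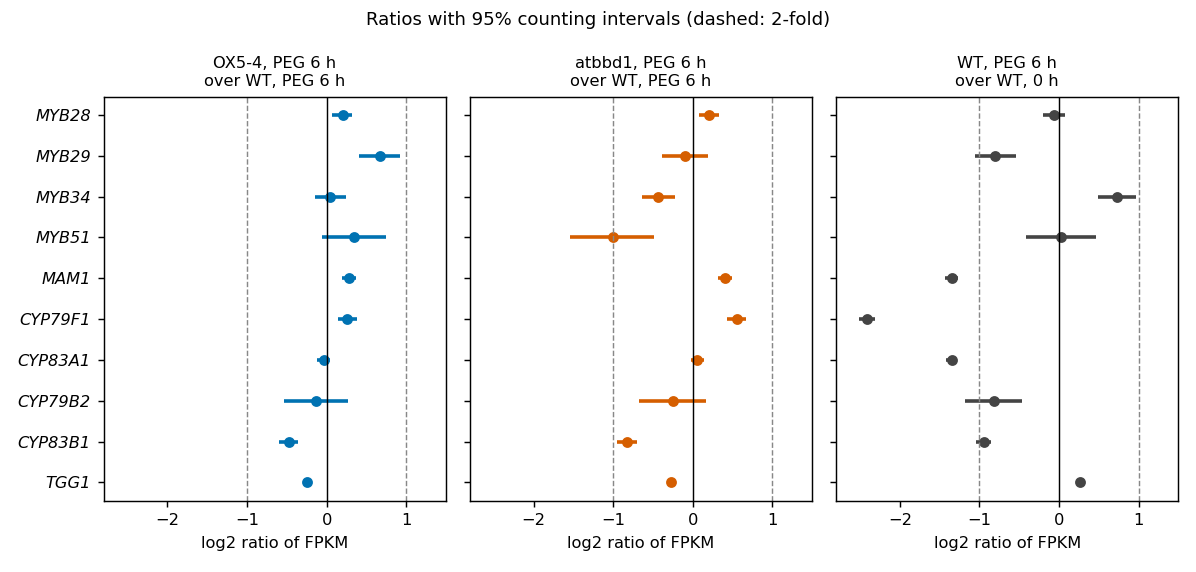
Log2 ratio of FPKM for the 10 glucosinolate genes in 3 comparisons (OX5-4 over WT after PEG, atbbd1 over WT after PEG, WT after PEG over WT at 0 h), with bars for 95% counting intervals on the recovered reads and dashed lines at 2-fold. In the middle panel MYB51 sat on the 2-fold line, and MYB34, CYP79B2 and CYP83B1 lay left of 0 while MAM1 and CYP79F1 lay right of it; the right panel holds the aliphatic enzymes beyond the line.

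The comparisons of OX5-4 and atbbd1 with WT after PEG share the WT library, so the lines were also set against each other directly. MYB51 was called higher in OX5-4 relative to atbbd1, at 2.54-fold (1.82 to 3.62), and 0 of the 10 genes were called lower, against 7.33% of all genes called higher and 1.28% lower. MYB29 was 1.70-fold higher in OX5-4 (1.42 to 2.03), MYB34 1.40-fold higher (1.21 to 1.61) and CYP83B1 1.27-fold higher (1.16 to 1.40). CYP79B2 had a ratio of 1.09 (0.821 to 1.46). The aliphatic enzymes had ratios of 0.817 for CYP79F1 (0.757 to 0.880), 0.920 for MAM1 and 0.939 for CYP83A1, and MYB28 one of 0.997. The median log2 ratio was 0.41 over the 4 indolic genes and -0.09 over the 5 aliphatic genes, against 0.11 over all genes. Of the other pathway genes, 6 were called higher in OX5-4 than in atbbd1 and 0 lower. FMOGS-OX4 was 33.5-fold higher (26.8 to 42.4) and FMOGS-OX2 13.6-fold higher (8.57 to 22.4), and SDI1 and IGMT2 were called on 9 and 2 and on 11 and 3 reads. MYC2 was at 8.04 FPKM in OX5-4 and listed at 0 in atbbd1, and MBP2 was at 1.21 FPKM in OX5-4 and listed at 0 in atbbd1. The MYC2 call rests on the same unexplained 0 in atbbd1.

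To find the genes nearest to the mean pattern of the aliphatic enzymes, log2 ratios were averaged over MAM1, CYP79F1 and CYP83A1. These were the ratios of OX5-4, atbbd1 and WT at 0 h over WT after PEG, with a pseudocount of 1. The mean profile was 0.16, 0.33 and 1.67 for OX5-4, atbbd1 and WT at 0 h, and the other 16364 genes considered were ranked by Euclidean distance to it over these 3 ratios. AT3G51750 was the nearest, at a distance of 0.05, with 8.10 FPKM in OX5-4, 9.08 FPKM in atbbd1, 7.0 FPKM in WT after PEG and 23.7 FPKM in WT at 0 h. It was followed by AT2G26695, AT2G15690, EMB2001 (AT2G22870), AT2G19870, MRL7-L (AT2G31840), PPR336 (AT1G61870), AT2G41050, AT5G42720 and AT3G24080, up to a distance of 0.12. None of these 10 was in the pathway lists. The nearest pathway gene was SOT18, at rank 25 and a distance of 0.17, and the nearest 100 held 2 pathway genes. The ranking left out the 10 genes of the set, so the 3 enzymes were not ranked against their own mean. That mean joined unlike values. With the same pseudocount, the log2 ratio of WT after PEG over WT at 0 h was -2.35 for CYP79F1, -1.33 for MAM1 and -1.34 for CYP83A1. With 4 libraries, many genes outside the lists lay nearer to this mean than most pathway genes did.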

How the data were processed

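Leaf mRNA was sequenced in 4 libraries of 1 condition each, grouped by the submitters' labels, whose names for the table's columns match. The authors deposited FPKM per gene. Their methods name HISAT2 2.1.0, TAIR10 and the Cufflinks pipeline and call the unit RPKM, while TopHat2 and Cufflinks stand in the processing notes of the submitters. These sources do not state how strand was handled. Reads of near copies (CYP79F1 and CYP79F2, MAM1 and MAM3, CYP79B2 and CYP79B3, TGG1 and TGG2, GSTF9 and GSTF10, the FMOGS-OX genes) can be shared.

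Mapped fragments per library were estimated as the total at which FPKM × exon length gave whole reads. This was done in genes with 1 annotated transcript and exon lengths of up to 1500 bases. Of their values of up to 40 reads, 99.2% to 99.3% were within 0.15 of a whole number. The estimated totals were 17684000, 16987500, 15708500 and 15321000 for OX5-4, atbbd1, WT after PEG and WT at 0 h. That length limit left out every gene of the set, whose exon lengths ran from 1731 bases (MYB29) to 3272 bases (CYP79F1). Their recovered reads were therefore not checked in this way. MYB28, MAM1, CYP79F1, CYP79B2 and TGG1 also have 2 or 3 annotated transcripts, so their summed exon length may differ from the length behind the FPKM. Exon lengths, gene positions and upstream sequences came from RefSeq TAIR10.1, whose nuclear chromosomes were taken as those of TAIR10, and 27445 of 27655 gene IDs matched it. Ratios of FPKM were taken with no pseudocount, 16374 genes that reached 1 FPKM somewhere were considered, and a gene at 0 was called only where the other library reached 1 FPKM. Intervals are exact binomial (scipy 1.17.1, numpy 2.4.6, pandas 2.3.3, Python 3.11.15) and were checked on simulated data.

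The text names the 10 genes, their near copies, the MYC partners, AtBBD1, genes of the pathway lists that were called or had the highest or lowest ratio of a list, and the 10 nearest profiles. The 10 genes and the lists were chosen with earlier results of these data known. Of the 80 further pathway genes listed, 79 were in the table, and AOP2 was not analysed here. Alternatives were no filter, a filter of 5 FPKM, pseudocounts of 1 and 0.1, a 4-fold threshold, median-of-ratios scaling, a common FPKM sum and, added after the data were seen, a 2-fold call whose counting interval also lies beyond 1.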

Additional observations from a re-analysis of the deposited data

How the results depend on the processing

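With 1 library per condition, leaving out a replicate would leave no comparison, and the spread between plants could not be measured. No paired analysis was possible because each condition has 1 library. Low genes such as MYB51 (49 to 130 reads) and CYP79B2 (94 to 179 reads) are limited by depth. Across the alternatives, 68 of 96 counts of calls stayed within 1.5 times the main count, 149 of 160 log2 ratios of the 10 genes stayed inside their counting interval, and 31 of 32 branch medians moved by less than the counting error of the gene nearest the median. The exception among branch medians was that of the aliphatic genes in OX5-4 over atbbd1, -0.21 under median-of-ratios scaling against -0.09 as reported. The counting-interval rule was chosen after seeing the data.

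For the 10 genes, the 1 call in atbbd1 over WT after PEG (MYB51) became 0 with median-of-ratios scaling, with pseudocounts of 1 and of 0.1, at 4-fold and with a filter of 5 FPKM. The 1 call in OX5-4 over atbbd1 became 0 at 4-fold, with a pseudocount of 1 and with a filter of 5 FPKM. The 3 calls in WT after PEG over WT at 0 h became 1 (CYP79F1) at 4-fold.

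For the other pathway genes, the 6 calls in OX5-4 over WT after PEG became 10 with no filter, 3 with a filter of 5 FPKM, 2 with a pseudocount of 1 and 3 at 4-fold. The 43 calls in WT after PEG over WT at 0 h became 23 at 4-fold, and the 6 calls in OX5-4 over atbbd1 became 3 with a filter of 5 FPKM.

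For all genes, the calls in OX5-4 over WT after PEG numbered 615, against 1547 with no filter, 281 with a filter of 5 FPKM, 260 with a pseudocount of 1 and 127 at 4-fold. Those in atbbd1 over WT after PEG numbered 1041, against 1997, 539, 421 and 277 under the same alternatives, and those in OX5-4 over atbbd1 numbered 1411, against 2444, 793, 790 and 466. In WT after PEG over WT at 0 h, 5239 calls became 1820 at 4-fold. The cause of these differences was not tested, except that a filter admits fewer genes and no filter more.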
